A study of Caenorhabditis elegans with 16 samples.

Results

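Silencing of *ech-6* was compared with empty vector (EV) in worms that were fed the soluble fat polysorbate 80 (P-80), in 8 of the 16 RNA samples of the series, over all 19750 genes of the deposited table. The 4 samples with *ech-6* RNAi and P-80 (*ech-6* RNAi + P-80) and the 4 with EV and P-80 (EV + P-80) were taken by their labels, and no measured value entered the choice. The other 8 samples, *ech-6* RNAi + vehicle and EV + vehicle, 4 of each, were used to ask which effects of the silencing were also present without P-80. They also entered the estimate of the spread used in the tests with P-80, and the mean level by which genes were named. All groups were wild-type N2 *Caenorhabditis elegans* of day 1 of adulthood, raised on HT115 bacteria that carried either the empty RNAi vector or the *ech-6* construct. Each sample was a pool of about 500 whole worms. The RNAi acts in the worm as a whole and lowers a transcript without removing it, and the controls shared the bacteria and the feeding of double-stranded RNA. In pools of whole worms, fewer cells of a type and less RNA per cell cannot be told apart.

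The enzyme encoded by *ech-6* is an enoyl-CoA hydratase, which adds water to the double bond of an acyl-CoA in the mitochondrion. It acts in the breakdown of valine and other branched-chain amino acids, and in the propionate shunt, the route by which worms on a diet low in vitamin B12 dispose of propionyl-CoA. In that route *acdh-1* makes the double bond, *ech-6* hydrates it, *hach-1* removes the CoA, *hphd-1* oxidizes the 3-hydroxypropionate and *alh-8* makes the acetyl-CoA. P-80 carries oleic acid, so that worms on it take up a fatty acid that they must store, elongate, desaturate or oxidize.

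Values are given as CPM, the reads of a gene scaled to a common library size, taken back from the deposited log2 CPM. Differences are log2 fold changes on the deposited scale and are positive where a gene was higher with *ech-6* RNAi. Genes are called at an adjusted p under 0.05 over all genes, by limma's moderated test, two-sided. The samples with P-80 held between 16148184 and 23149851 recovered reads, and those with vehicle between 15306307 and 28129104. The library labelled *ech-6* RNAi + vehicle replicate 3 had *ech-6* at the EV level, so values with vehicle were also computed without it. Through the shared spread it also entered the tests with P-80, which called 89 genes higher and 37 lower without it, beside 94 and 44 with it. All 580 genes called with vehicle had the same sign without it and 327 were still called, and the changed calls of named genes and changed list counts are given beside the results. Under P-80, none of the 84 entries in the marker lists of sperm, oocyte and eggshell, intestine, body wall muscle, hypodermis and molting, and neuron was called. The 29 sperm genes, mostly of the msp family and not independent, had median log2 fold changes of 0.16 with P-80 and 0.20 with vehicle. At an unadjusted p under 0.05, 14 of them were higher under P-80, against 4.56% of all genes. Their summed level ran from 2249 to 2758 CPM in EV + P-80 and from 2574 to 2862 CPM in *ech-6* RNAi + P-80. The 13 genes of hypodermis and molting had a median of -0.34 with P-80 and -0.73 with vehicle. The 17 oocyte and eggshell genes had medians of 0.11 with P-80 and 0.29 with vehicle, with 16 positive in each. Of 8 body wall muscle genes, 3 were higher under P-80 at an unadjusted p under 0.05 and none lower. The part of these shifts in the results was not tested.

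The silencing itself was present in every sample with P-80. *ech-6* (WBGene00001155; WBcel235, chromosome III, 9751552 to 9752883, minus strand, protein coding, 4 exons) had 63.1, 68.3, 72.3 and 61.0 CPM in *ech-6* RNAi + P-80. It had 210.4, 237, 176 and 187 CPM in EV + P-80. The groups lay far apart, with 30.1% to 35.7% of the mean EV + P-80 level left in each silenced sample. The log2 fold change was -1.61 (standard error 0.21, adjusted p = 0.000307 by limma). This standard error rests on the spread of all 4 groups, and without *ech-6* RNAi + vehicle replicate 3 the adjusted p was 8.79e-10 by limma. By the two-sided exact permutation test p was 0.0286, the smallest that 4 samples against 4 allow. With vehicle the same difference was -0.96 (adjusted p = 0.0144 by limma, exact permutation p = 0.114), and -1.302 without the library labelled *ech-6* RNAi + vehicle replicate 3. That adjusted p did not pass without the mean-variance trend (0.0850), with the robust prior (0.0642) and in the 4 fits without EV + vehicle replicate 1 or *ech-6* RNAi + vehicle replicate 1, 2 or 4 (0.0505 to 0.0632).

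Under P-80, *ech-6* RNAi raised 94 genes and lowered 44, which is 0.476% and 0.223% of the genes tested. In 133 of these 138 genes the samples of the groups did not overlap, against 4.62% of all genes. The genes were called on the same samples, so this count is a description. At least a 2-fold difference was found in 27 of the raised and 6 of the lowered genes. At an unadjusted p under 0.05, 901 genes (4.56%) were higher and 1136 (5.75%) lower. Of the 138 genes, 130 are protein coding by the Ensembl annotation, and 8 averaged under 1 CPM. The plot of level and change shows that the raised genes with the larger changes sat at low to middle levels, while the lowered genes reached up to *R144.15*, a noncoding RNA.

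**Figure D1:**
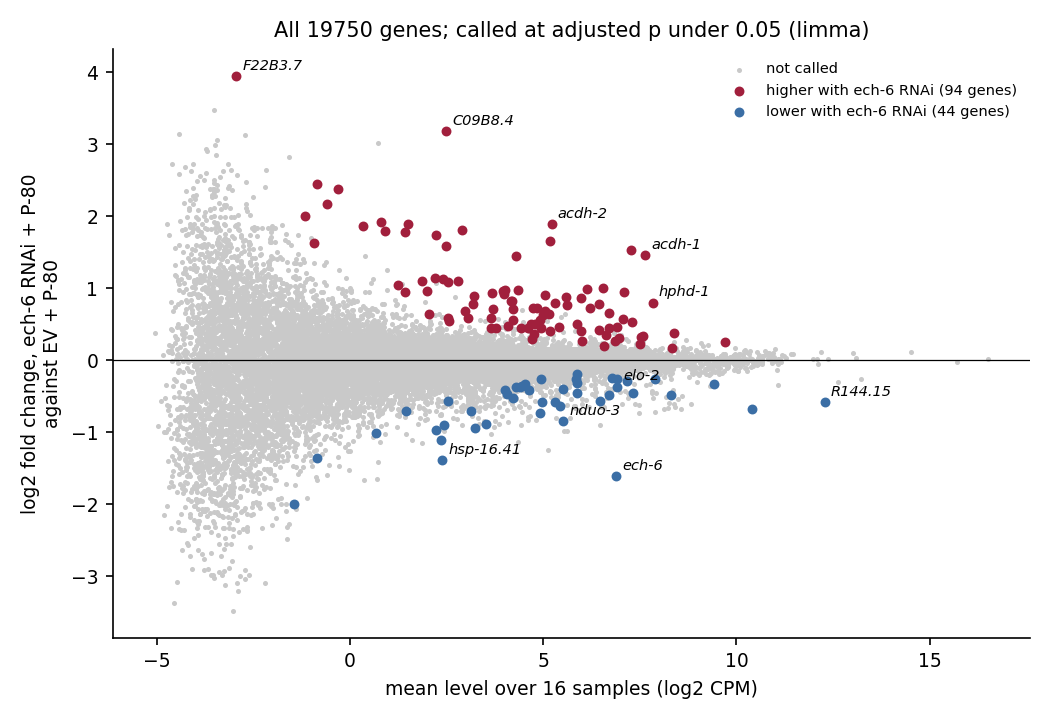
Each point is 1 of the 19750 genes, with its mean log2 CPM over the 16 samples on the x axis and the difference between *ech-6* RNAi + P-80 and EV + P-80, as a log2 fold change, on the y axis. The 94 higher genes are red, the 44 lower genes blue and genes not called grey. *C09B8.4* and *acdh-2* stand at 3.18 and 1.89, and *ech-6* at -1.61.

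These counts depended on the samples and on the fit. Without EV + P-80 replicate 4 the lowered genes went from 44 to 207 and without *ech-6* RNAi + P-80 replicate 3 to 101, whereas without EV + P-80 replicate 1 they fell to 23. The raised genes stayed between 68 and 108 over the 16 fits that left out 1 sample. With only the 8 samples compared in the fit, 57 genes were higher and 18 lower, and without the mean-variance trend 46 and 21. All 138 genes kept their sign in every one of these fits in which they were tested.

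The 12 largest rises, among called genes averaging at least 1 CPM whose groups did not overlap, were led by *C09B8.4*. This is a protein coding gene on X (6018442 to 6019936) for which the annotation gives no name. It had 12.55, 29.7, 16.6 and 17.5 CPM in *ech-6* RNAi + P-80 and 1.71, 3.75, 1.33 and 1.82 CPM in EV + P-80. The lowest silenced sample was above every EV sample, and the log2 fold change was 3.18 (standard error 0.29, adjusted p = 2.72e-05 by limma). With vehicle it was 3.41, and the difference between both effects, the interaction, was -0.23 (95% interval -1.097 to 0.63).

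*acdh-2*, an acyl-CoA dehydrogenase close in sequence to *acdh-1*, had 65.1, 180.4, 110.01 and 90.1 CPM in *ech-6* RNAi + P-80 and 26.3, 51.1, 20.2 and 22.4 CPM in EV + P-80. The groups did not overlap, though the highest EV sample came near the lowest silenced one. The log2 fold change of *acdh-2* was 1.89 (standard error 0.27, adjusted p = 0.00111 by limma). Its EV level without P-80 was only 8.69 to 11.1 CPM, and its log2 fold change with vehicle was 2.78. The interaction of *acdh-2* was -0.88 (95% interval -1.69 to -0.08, adjusted p = 0.81).

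*folt-2*, which belongs to the folate transporter family, rose from 112, 116, 95.3 and 73.3 CPM to 202, 376, 294 and 279.8 CPM, that is by 1.52 on the log2 scale (adjusted p = 5.60e-05 by limma). *irg-1*, an infection response gene, rose from 2.88, 2.08, 1.86 and 2.62 CPM to 4.70, 15.1, 7.09 and 7.22 CPM, a change of 1.74. *parg-2*, which encodes a poly(ADP-ribose) glycohydrolase, was at 2.08, 1.28, 1.51 and 1.82 CPM in EV + P-80 and at 4.33, 11.5, 4.52 and 6.19 CPM in *ech-6* RNAi + P-80. No sample of these 3 genes crossed from one group into the other. Without *ech-6* RNAi + P-80 replicate 2 the adjusted p of *parg-2* no longer passed the threshold.

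The other 7 of the 12 were *ugt-32*, *C25F9.11*, *B0205.13*, *clec-43*, *C49G7.12*, *K11H12.4* and *clec-47*, with log2 fold changes from 1.58 to 1.92. All 12 were also called higher with vehicle, and none of their interactions passed the threshold. *B0205.13* had the largest interaction of the 12 in the direction of P-80, 0.82 (95% interval 0.28 to 1.36, adjusted p = 0.707), with a log2 fold change of 1.803 under P-80 and 0.98 with vehicle. 1 sample stood out among the raised genes: *ech-6* RNAi + P-80 replicate 2 was the highest of its group in 73 of the 94 genes, and it was the highest in 24.9% of all genes averaging at least 1 CPM. Without replicate 2, 68 genes were higher and 31 lower. In reads over genes in general, however, *ech-6* RNAi + P-80 replicate 3 lay furthest from the rest of its group. The chi-square per gene between its reads and those of replicates 1, 2 and 4 was 21.96, 26.32 and 27.15. Among replicates 1, 2 and 4 it was 4.948 to 5.531.

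Next it was asked which effects of the silencing seen with vehicle persisted under P-80. With vehicle 386 genes were higher (1.95%) and 194 lower (0.982%). Of these, 65 and 17 were also called in the same direction under P-80, which is 16.8% of the genes raised and 8.76% of the genes lowered with vehicle. Seen from the other side, these were 69.1% of the genes raised and 38.6% of the genes lowered under P-80. No gene was called in opposite directions. These shares depended on the fit. Without EV + vehicle replicate 1 only 166 genes were higher and 42 lower with vehicle, 58 and 13 of them were called in both, and the shares became 34.9% and 30.95%. Without EV + vehicle replicate 4 they became 31.2% and 22.6%, of 176 and 53 genes. With only the groups compared in the fit, 571 genes were higher and 878 lower with vehicle, and 8.58% and 0.911% of them were called again. The pair of comparisons shares no sample, only the estimate of the spread.

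Most of the genes called with vehicle had the same sign under P-80, whether or not they were called again. Of the 386 genes raised with vehicle, 355 (92.0%) had a positive log2 fold change under P-80, where 47.5% of all genes did, and 187 had an unadjusted p under 0.05 in that direction. Of the 194 lowered genes, 182 (93.8%) were negative under P-80, against 52.5% of all genes, with 90 at an unadjusted p under 0.05. None of the 580 genes went the other way at that level.

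The median log2 fold change of the genes raised with vehicle was 0.44 there and 0.15 under P-80, and that of the lowered genes -0.45 and -0.19. These genes were chosen by their values with vehicle, which makes those values larger. Read from the genes chosen under P-80, the medians were 0.75 under P-80 and 0.65 with vehicle for the raised genes, and -0.51 and -0.22 for the lowered ones. Over all genes both medians were close to 0 (-0.01 under P-80). Across the 13910 genes averaging at least 1 CPM, the log2 fold changes with vehicle and with P-80 had a Pearson correlation of 0.58 and a Spearman correlation of 0.46, and across all 19750 genes 0.15 and 0.26. These are descriptions across genes, which are not independent.

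Without the library labelled *ech-6* RNAi + vehicle replicate 3, 250 genes were higher and 96 lower with vehicle, and 60 and 12 were called in both comparisons. Of the genes raised and lowered with vehicle in that fit, 94.0% and 94.8% had the same sign under P-80, with medians of 0.21 and -0.20.

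**Figure D2:**
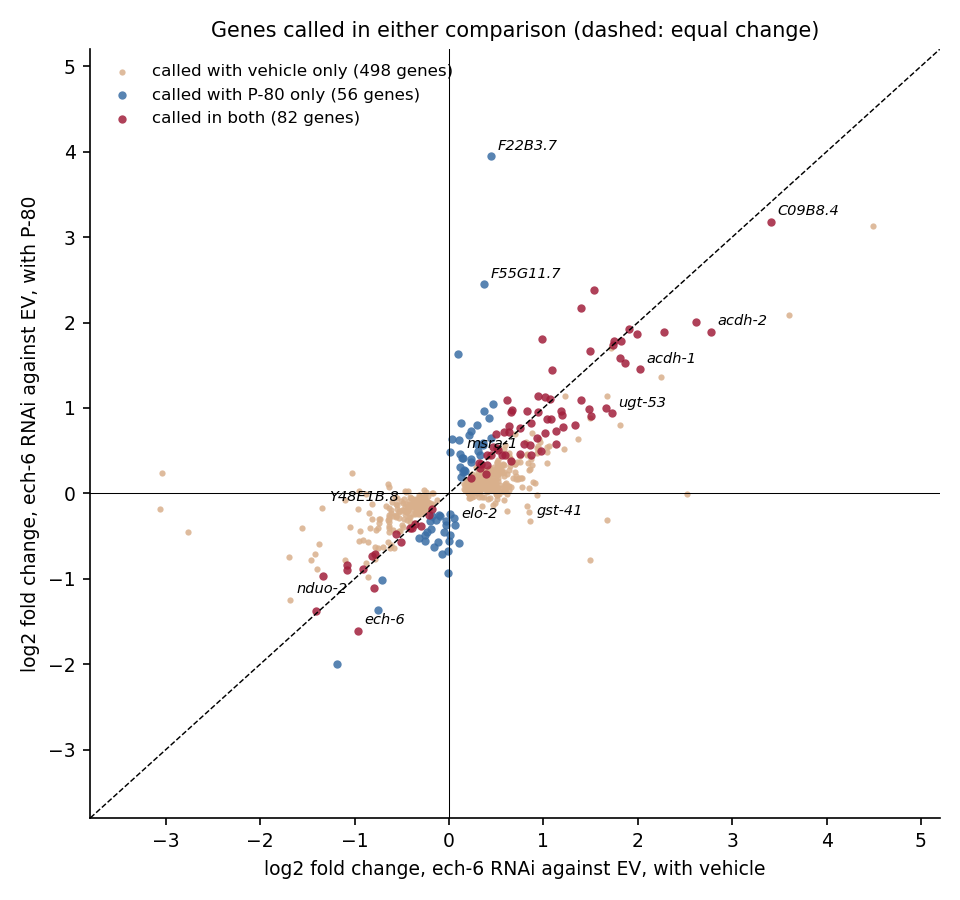
The effect of *ech-6* RNAi, as a log2 fold change, with vehicle (x axis) and with P-80 (y axis) for each gene called in at least 1 of the comparisons. The 82 genes called in both (red) lie around the dashed line of equal change. The genes called with vehicle only (tan) lie mostly on the same side of 0 but nearer to the x axis. The colors follow the calls on these same values, which favors this arrangement, and no interaction was called.

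A difference between the effects with P-80 and with vehicle was tested directly as an interaction. No gene passed the threshold (0.0% of 19750, limma, smallest adjusted p = 0.0511, for *elo-2*), and 1168 genes (5.91%) had an unadjusted p under 0.05. So for no single gene was the effect of *ech-6* RNAi shown to be smaller or larger under P-80 in this fit, whereas *elo-2* passed with the robust prior, with low genes left out, with voom weights and with log2(CPM + 1). Among the 321 genes called higher with vehicle alone, 159 had an unadjusted interaction p under 0.05, and among the 65 called higher in both, 13 did. The calls with vehicle used the same values as the interaction, so these counts are a description.

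The 5 genes called with vehicle whose interaction had the smallest p-values were *gst-41*, *F25E5.8*, *F26A1.8*, *ugt-53* and *C39B5.5*. *gst-41*, a glutathione S-transferase, had 0.88 to 1.28 CPM in EV + vehicle, 1.72 to 2.13 CPM in *ech-6* RNAi + vehicle, 2.57 to 2.996 CPM in EV + P-80 and 1.98 to 2.35 CPM in *ech-6* RNAi + P-80. Its samples were thus ordered one way with vehicle and the other way with P-80, without overlap in either (interaction -1.18, 95% interval -1.66 to -0.70, adjusted p = 0.265 by limma). *ugt-53* kept a difference, with 9.79 to 13.7 CPM in EV + P-80 and 20.01 to 23.8 CPM in *ech-6* RNAi + P-80, while EV + vehicle had only 4.60 to 6.89 CPM. Its log2 fold change was 0.94 under P-80 (adjusted p = 0.000521) and 1.73 with vehicle, with an interaction of -0.79 (adjusted p = 0.569).

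*F25E5.8*, *F26A1.8* and *C39B5.5* differed between *ech-6* RNAi and EV with vehicle, by 0.42, -0.63 and 0.33, and their log2 fold changes under P-80 were -0.06, 0.08 and 0.02. For *F26A1.8* the 4 samples of EV + P-80 (21.9 to 26.5 CPM) lay at the level of *ech-6* RNAi + P-80 (23.1 to 27.4 CPM), and EV + vehicle (32.5 to 46.5 CPM) alone stood above. Neither the sign for *C39B5.5* under P-80 nor that for *Y48E1B.8*, below, was the same in every fit that left out 1 sample.

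In the propionate shunt, 3 of 5 genes were called higher under P-80 and *ech-6* lower, where 0.476% of all genes were called higher and 0.223% lower. With vehicle 4 were higher, with and without the doubted library. The 3 calls fell to 1 without EV + P-80 replicate 3 or *ech-6* RNAi + P-80 replicate 2 and with only the groups compared, and to 0 without the mean-variance trend and with the robust prior. *acdh-1*, the dehydrogenase one step before *ech-6*, had 193, 491, 339.6 and 307 CPM in *ech-6* RNAi + P-80 and 121, 189, 83.9 and 90.3 CPM in EV + P-80. Its lowest silenced sample was just above the highest EV sample, and the log2 fold change was 1.46 (standard error 0.26, adjusted p = 0.00709 by limma), against 2.03 with vehicle. *hphd-1*, the hydroxyacid-oxoacid transhydrogenase, had 237, 385, 316 and 290.1 CPM against 181, 236, 147 and 145 CPM, a change of 0.80 (adjusted p = 0.0156). The groups nearly met, at 237.4 and 236.2 CPM. Without *ech-6* RNAi + P-80 replicate 2 or EV + P-80 replicate 3, *hphd-1* missed the threshold.

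*hach-1*, the hydrolase between them, had 119.8, 171, 155 and 140.2 CPM in *ech-6* RNAi + P-80 and 105, 128, 93.8 and 97.8 CPM in EV + P-80. Here the groups overlapped, and the log2 fold change of 0.46 (adjusted p = 0.0438) was lost in 16 of the 26 alternative fits. *alh-8*, the last enzyme of the shunt, was at 602 to 695 CPM against 533 to 608 CPM, a log2 fold change of 0.20 that missed the threshold (adjusted p = 0.103), while with vehicle it was 0.28 (adjusted p = 0.00549). The interactions of the 5 genes were all negative, from -0.65 for *ech-6* to -0.08 for *alh-8*, and none passed the threshold. For *ech-6* this means a larger fall under P-80 than with vehicle, and for the other genes a smaller rise. All 5 were called with vehicle on the same values that enter the interaction. Without *ech-6* RNAi + vehicle replicate 3 the interaction of *ech-6* was -0.31. For *hphd-1* the interaction was -0.53 (95% interval -1.001 to -0.07, adjusted p = 0.806) and for *acdh-1* it was -0.57 (-1.34 to 0.20). Over the 5 genes, *ech-6* included, the median was 0.46 under P-80 and 0.75 with vehicle.

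**Figure D3:**
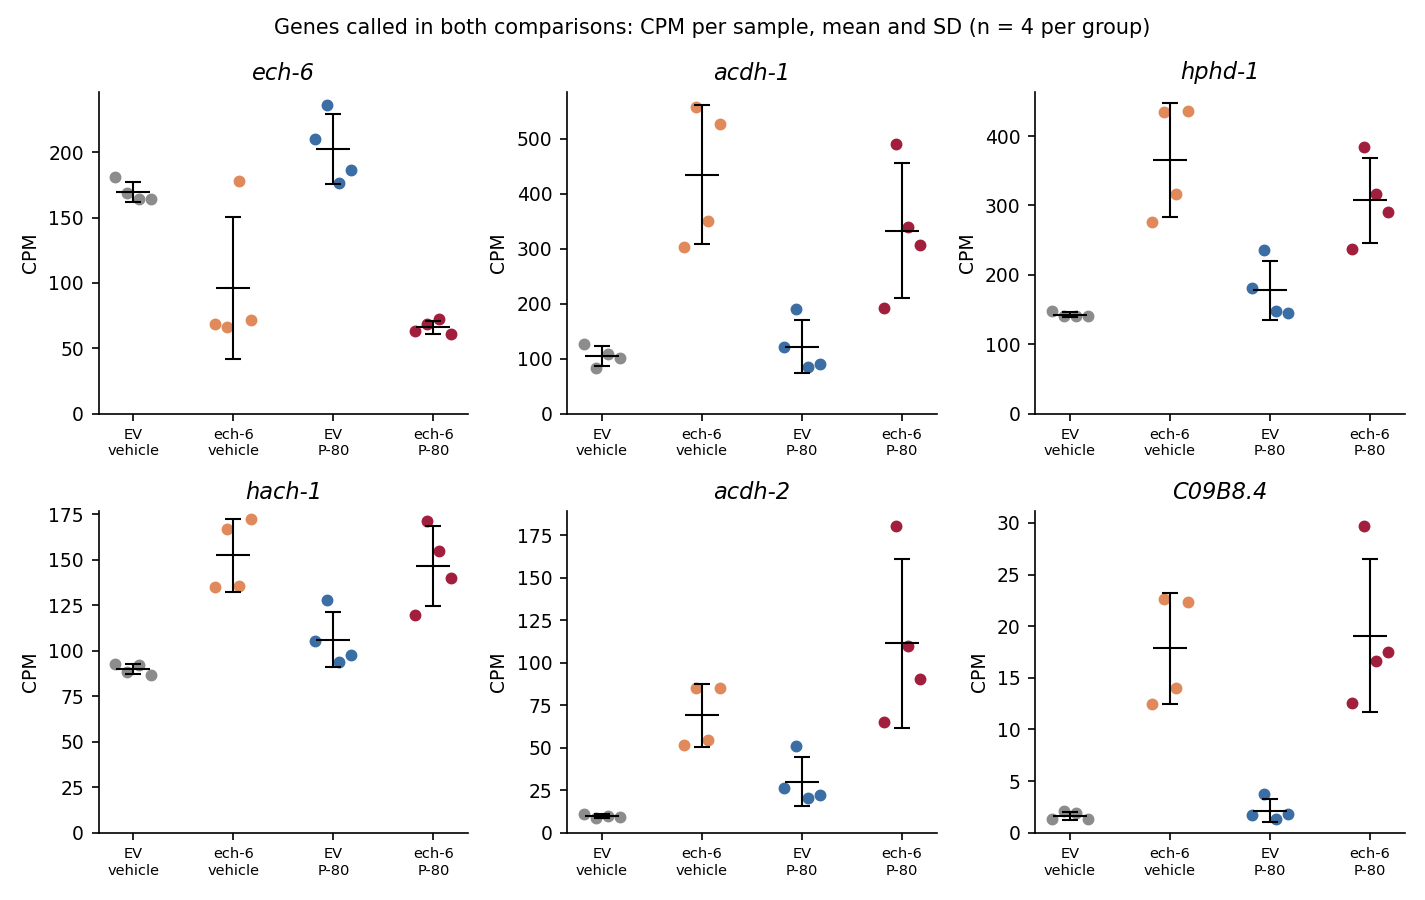
CPM of each sample (points) with the mean and SD (black, n = 4) in the 4 groups, for *ech-6*, 3 genes of the propionate shunt, *acdh-2* and *C09B8.4*. Under P-80 the silenced samples lie above EV + P-80 for every gene but *ech-6* and, with an overlap, *hach-1*. In the *ech-6* RNAi + vehicle group, 1 sample has the *ech-6* level of EV.

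Branched-chain amino acid breakdown held 4 raised genes of 15 under P-80 and none lowered, beside 0.476% of all genes raised, and 7 raised with vehicle. The count fell to 1 without EV + P-80 replicate 3, *ech-6* RNAi + P-80 replicate 2 or *ech-6* RNAi + P-80 replicate 4 and to 2 without *ech-6* RNAi + P-80 replicate 3, and it was 0 without the mean-variance trend. Besides *hach-1* these were *ivd-1*, *kat-1* and *C05C10.3*. *ivd-1*, the isovaleryl-CoA dehydrogenase of leucine breakdown, had 194, 222, 196 and 209 CPM against 180.3, 187, 166 and 169.6 CPM, a small difference without overlap (log2 fold change 0.22, adjusted p = 0.0220 by limma). *kat-1*, a thiolase, had 198 to 243 CPM against 165 to 187 CPM (0.33, adjusted p = 0.00631). *C05C10.3*, the other called gene of the list, had 382 to 487 CPM against 294 to 384 CPM, with an overlap and a change of 0.37 (adjusted p = 0.0274). The calls of *C05C10.3* and *ivd-1* were lost in 8 and 5 of the 26 alternative fits.

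The genes *acdh-9*, *B0250.5* and *T02G5.7* of the same list were called with vehicle only. Their log2 fold changes under P-80 were 0.27, 0.12 and 0.18, with adjusted p-values of 0.101, 0.496 and 0.164, and their interactions were not past the threshold either. The median over the 15 genes was 0.04 under P-80 and 0.17 with vehicle. The vitamin B12-dependent route of propionate breakdown, which converts propionyl-CoA to succinyl-CoA, held no called gene of 6 in either comparison, with log2 fold changes between -0.08 and 0.05 under P-80. In the list of propionate sensing and the methionine cycle none of 18 was called under P-80.

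Enzymes of mitochondrial fatty acid oxidation went both ways. Of 15 genes, *kat-1* and *ech-1.1* were higher and *hacd-1* lower under P-80, beside 0.476% and 0.223% of all genes. *ech-1.1*, an enoyl-CoA hydratase of the mitochondrial trifunctional enzyme, had 19.1, 12.7, 16.0 and 15.9 CPM in *ech-6* RNAi + P-80 and 9.91, 11.5, 11.2 and 9.52 CPM in EV + P-80. The samples did not overlap (log2 fold change 0.59, adjusted p = 0.00741 by limma), and its close relative *ech-1.2* may share reads with it.

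*hacd-1*, a hydroxyacyl-CoA dehydrogenase, fell from 41.9, 49.2, 42.8 and 39.1 CPM to 26.7, 26.8, 29.98 and 28.1 CPM, without overlap. The difference was -0.63 on the log2 scale, with a standard error of 0.0635 and an adjusted p of 3.08e-05, and it passed in all 26 alternative fits. With vehicle it had 54.5 to 59.9 CPM in EV and 48.3 to 51.9 CPM in *ech-6* RNAi, a difference of -0.16 that missed the threshold (adjusted p = 0.173). Its interaction was -0.47 (95% interval -0.65 to -0.28, adjusted p = 0.265). None of the 15 genes of peroxisomal beta-oxidation was called under P-80. With vehicle *acox-1.1*, *acox-1.2* and *acox-1.4* were lower, beside 0.982% of all genes. The call of *acox-1.1* was lost without *ech-6* RNAi + vehicle replicate 3 (adjusted p = 0.0760 by limma). For *acox-1.2* the log2 fold change was -0.84 with vehicle and -0.40 under P-80 (adjusted p = 0.331 by limma).

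Fatty acid elongation held calls under P-80 that it did not hold with vehicle. Of 20 genes that make, elongate or desaturate fatty acids, *elo-2*, *elo-5* and *elo-6* were called lower under P-80, beside 0.223% of all genes, and none was called lower with vehicle. *elo-2*, which elongates palmitic acid, had 115.02, 112, 119.4 and 119.1 CPM in *ech-6* RNAi + P-80 and 156, 154, 145 and 145 CPM in EV + P-80. With vehicle it had 105 to 118 CPM in *ech-6* RNAi and 103 to 113.8 CPM in EV. EV + P-80 was thus the high group, and the remaining 12 samples lay between 103 and 119.4 CPM. The log2 fold change under P-80 was -0.37 (standard error 0.047, adjusted p = 0.000283), with vehicle 0.07 (adjusted p = 0.466), and the interaction -0.44 (95% interval -0.57 to -0.30, adjusted p = 0.0511, and 0.0260 without *ech-6* RNAi + vehicle replicate 3).

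*elo-5*, which makes branched-chain fatty acids that start from a leucine-derived unit, was likewise highest in EV + P-80. It had 136 to 138 CPM in *ech-6* RNAi + P-80 and 172, 171, 175 and 154 CPM in EV + P-80 (log2 fold change -0.29, adjusted p = 0.00123 by limma), and 127 to 142.1 CPM over both groups with vehicle. *elo-6*, which acts in the same route and lies 9511 bases from *elo-5* on chromosome IV, had 194 to 237.5 CPM against 237.8 to 284 CPM, a difference of -0.26 (adjusted p = 0.0424) that was lost in 14 of 26 alternative fits. Its difference with vehicle, -0.18, missed the threshold (adjusted p = 0.0939). The fatty acid synthase gene *fasn-1* and the acetyl-CoA carboxylase gene *pod-2* had log2 fold changes of 0.07 and 0.03 under P-80, and *pod-2* was higher with vehicle (0.23, adjusted p = 0.00119).

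Storage and energy genes outside these lists, named after their values were seen, included *ldp-1*, which encodes a lipid droplet protein, and *argk-1*, an arginine kinase. *argk-1* had 37.8, 34.8, 33.98 and 34.2 CPM in *ech-6* RNAi + P-80 and 54.8, 56.8, 44.7 and 53.9 CPM in EV + P-80 (log2 fold change -0.58, adjusted p = 0.000536 by limma). With vehicle its groups overlapped between 32.7 and 42.4 CPM. *ldp-1* had 97.4 to 113.8 CPM against 116 to 129 CPM under P-80 (-0.24, adjusted p = 0.0424) and a difference of 0.02 with vehicle.

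Of the 7 lysosomal-type lipases measured, *lipl-5* was lower under P-80, beside 0.223% of all genes. It had 34.3, 27.6, 32.1 and 29.5 CPM against 46.2, 56.4, 36.5 and 44.8 CPM (log2 fold change -0.56, adjusted p = 0.00583 by limma). Both groups were far below the samples with vehicle, which had 173 to 243 CPM. *lipl-4* was lower with vehicle (-1.101, adjusted p = 0.0293, and 0.0577 without *ech-6* RNAi + vehicle replicate 3), and under P-80 its samples overlapped, at 0.975 to 1.83 CPM against 0.839 to 1.59 CPM (-0.08, adjusted p = 0.944).

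**Figure D4:**
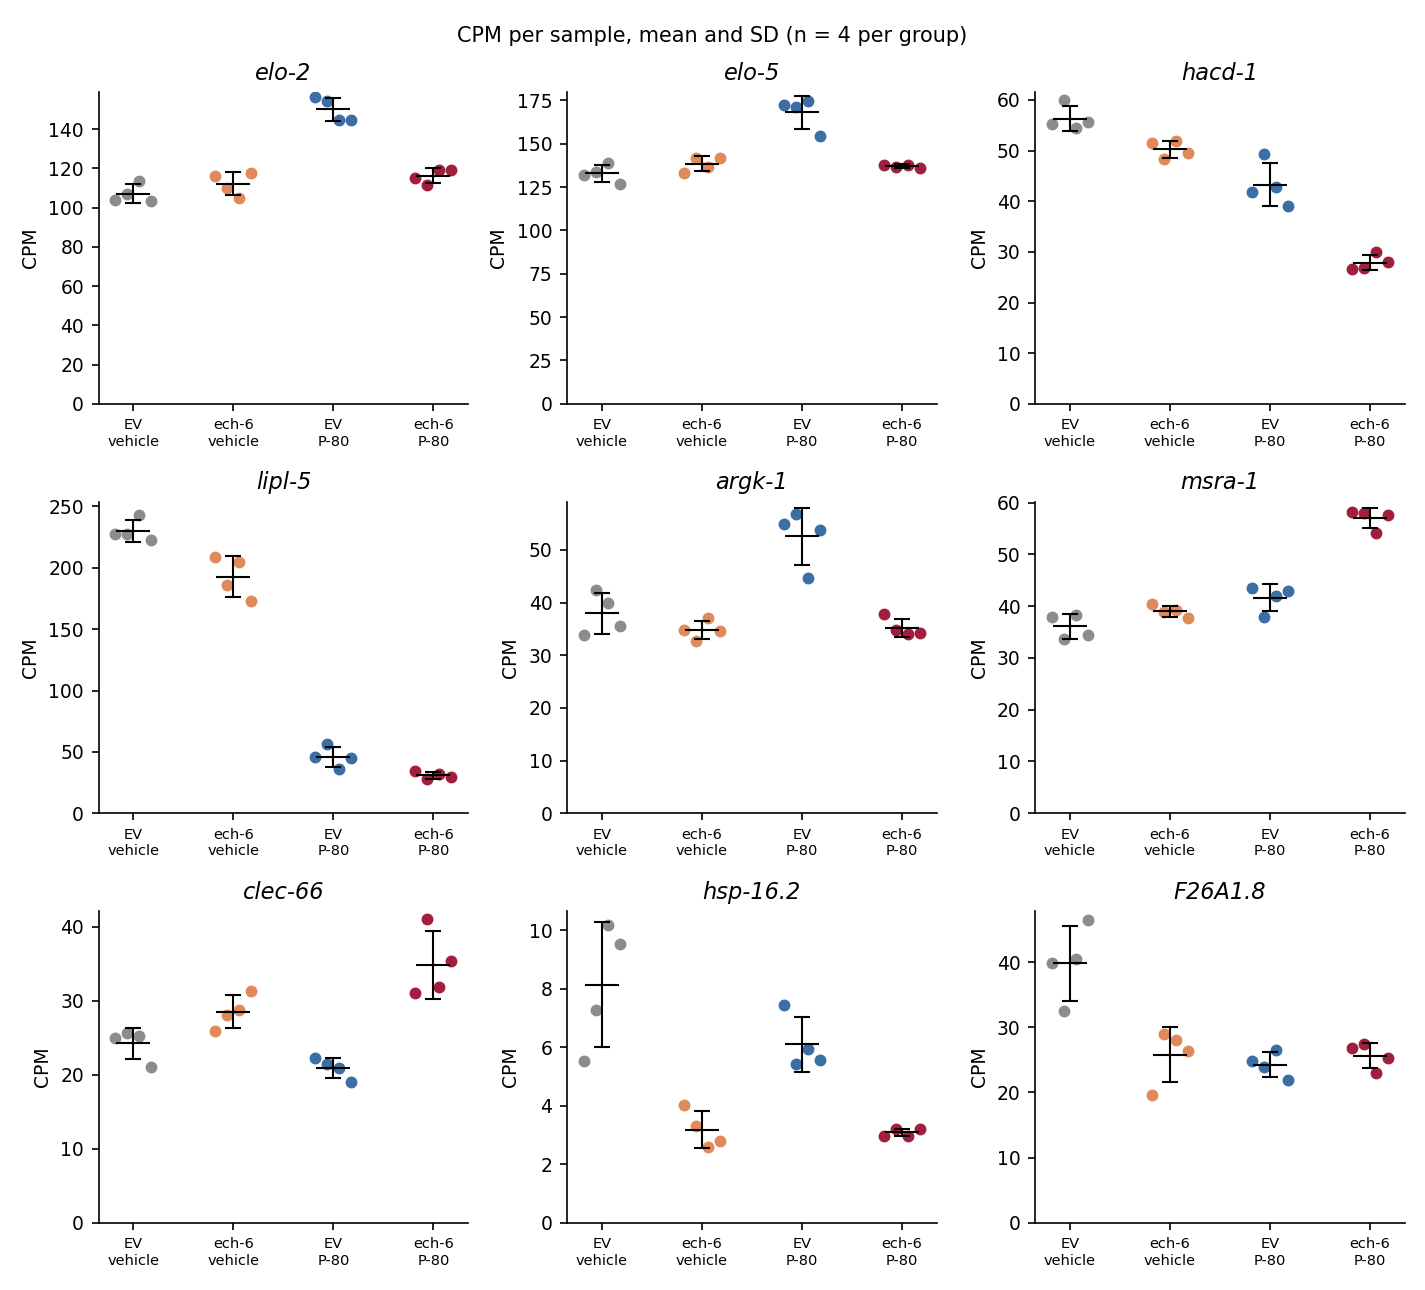
CPM of each sample (points) with the mean and SD (black, n = 4) in the 4 groups for 9 genes. For *elo-2*, *elo-5* and *argk-1* EV + P-80 stands above the other 3 groups, *hacd-1* and *lipl-5* are lowest in *ech-6* RNAi + P-80, and *msra-1* and *clec-66* are highest there. *hsp-16.2* is lower with *ech-6* RNAi on both diets, and *F26A1.8* is highest in EV + vehicle.

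Of 6 hsp-16 genes, which encode small heat shock proteins, *hsp-16.2* and *hsp-16.41* were called lower with P-80 and with vehicle, and *hsp-16.48* with P-80. The list of the cytosolic heat shock response held 4 lowered genes of 14 and none raised under P-80, beside 0.223% of all genes lowered, with a median log2 fold change of -0.65 under P-80 and -0.58 with vehicle, where 5 were lower, or 4 without *ech-6* RNAi + vehicle replicate 3. Without the mean-variance trend and with only the groups compared 2 were lower under P-80. *hsp-16.2*, a small chaperone, had 2.97, 3.20, 2.97 and 3.21 CPM in *ech-6* RNAi + P-80 and 7.47, 5.43, 5.94 and 5.56 CPM in EV + P-80 (-0.97, adjusted p = 0.00741 by limma). *hsp-16.41*, its neighbor 220 bases away on chromosome V, had 1.77 to 4.59 CPM against 6.51 to 8.87 CPM (-1.38, adjusted p = 0.00115). With vehicle these differences were -1.33 and -1.41.

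*F44E5.5*, an hsp70 gene, had 2.66 to 4.06 CPM against 5.08 to 8.32 CPM under P-80 (-0.90, adjusted p = 0.00941). *hsp-16.48*, at 0.0901 to 0.229 CPM against 0.482 to 0.734 CPM, rested on few reads, and its call was lost in 15 of the 25 alternative fits that tested it. The hsp-16 genes and the F44E5.4 and F44E5.5 pair are near-identical copies, so reads may be shared or lost among them. *F44E5.4* and *hsp-70*, called with vehicle (*F44E5.4* not without *ech-6* RNAi + vehicle replicate 3, adjusted p = 0.124), had -0.98 (adjusted p = 0.0536) and -0.41 (adjusted p = 0.0710) under P-80, again with no overlap between the groups. No gene of the mitochondrial (14 genes) or the endoplasmic reticulum (13 genes) unfolded protein response was called in either comparison.

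Of the 12 genes of mitochondrial DNA, *nduo-3*, a subunit of respiratory complex I, was lower under P-80, beside 0.223% of all genes. *nduo-3* lost its call in 4 of the 26 alternative fits, among them the fit without *ech-6* RNAi + P-80 replicate 2. It had 26.7, 36.1, 37.9 and 60.7 CPM in *ech-6* RNAi + P-80 and 67.9, 71.4, 69.5 and 68.3 CPM in EV + P-80 (log2 fold change -0.84, adjusted p = 0.0156 by limma), with replicate 4 near the EV level. The same sample stood out in *nduo-2*, another subunit of complex I, at 74.5 CPM beside 15.4, 24.7 and 18.1 CPM, against 51.0 to 75.8 CPM in EV + P-80. The call of *nduo-2* with vehicle (-1.68, adjusted p = 0.0078) was thus not repeated under P-80 (-1.24, adjusted p = 0.101), and it passed the threshold without replicate 4 (-1.74). All 12 genes had negative log2 fold changes under P-80, where 52.5% of all genes did, with a median of -0.14. At an unadjusted p under 0.05, 5 were lower, against 5.75% of all genes. The 12 genes lie together on the mitochondrial DNA and are not independent, so these counts are a description. With vehicle 7 of the 12 were positive and 5 negative, with a median of 0.009.

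**Figure D5:**
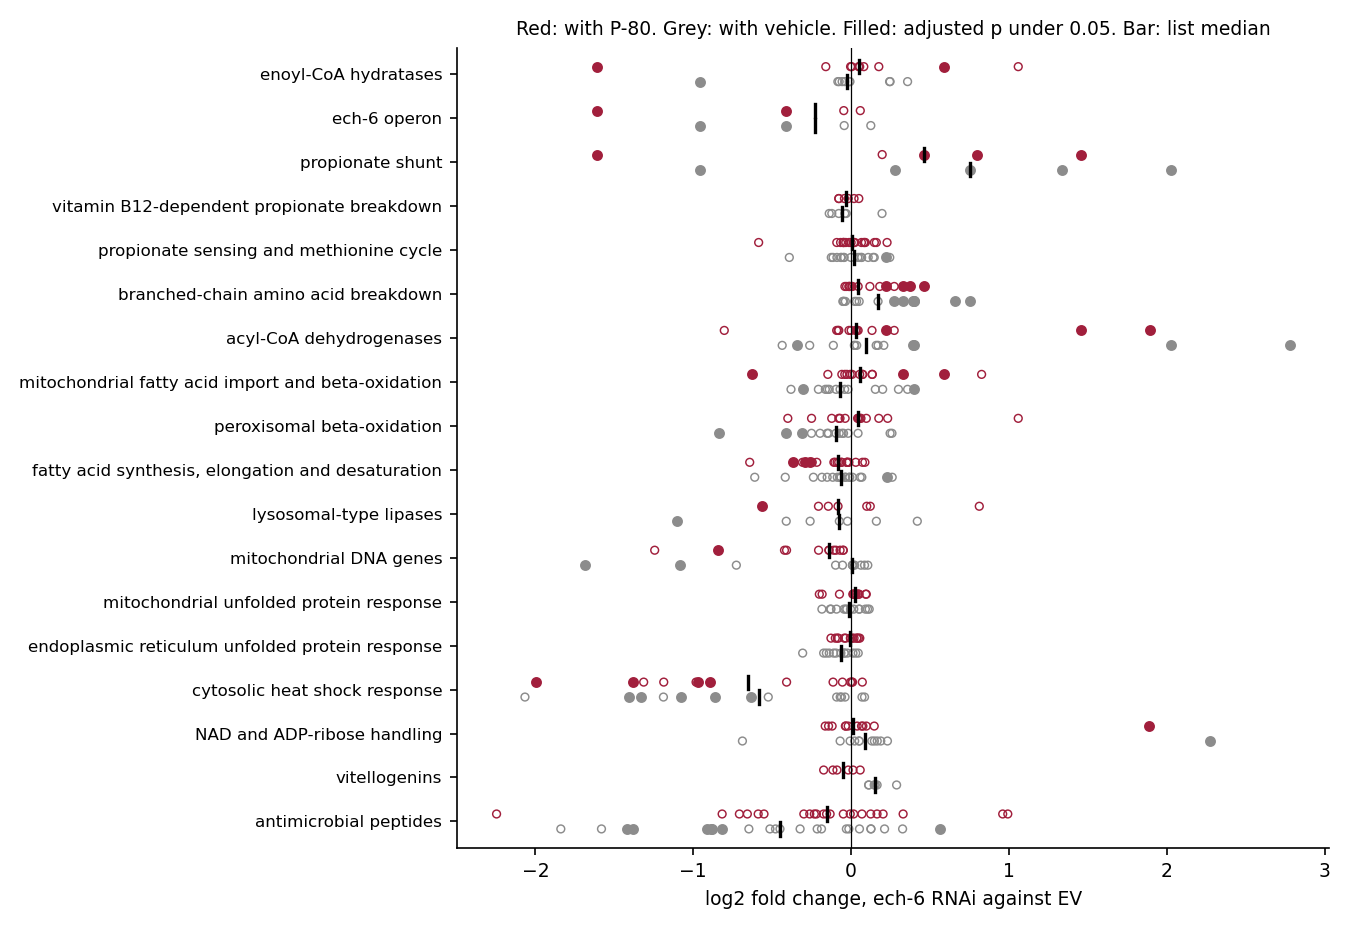
Each point is the effect of *ech-6* RNAi, as a log2 fold change, on 1 gene of a list, with P-80 in red and with vehicle in grey; filled points were called at an adjusted p under 0.05 and bars are list medians. The medians of the propionate shunt and the heat shock list have the same sign with P-80 and with vehicle, and the antimicrobial peptides have filled points with vehicle only.

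Families of transporters and enzymes that handle foreign compounds were picked after the values were seen. Of 62 UDP-glucuronosyltransferase genes (ugt), which attach sugars to lipophilic molecules, 6 were raised and 1 lowered under P-80, beside 0.476% and 0.223% of all genes, against 15 and 2 with vehicle, beside 1.95% and 0.982%. Without *ech-6* RNAi + vehicle replicate 3 the counts with vehicle were 14 and 0. *ugt-19* had 22.3, 52.0, 32.3 and 33.5 CPM against 12.9, 12.3, 12.5 and 11.4 CPM (log2 fold change 1.45, adjusted p = 0.000118 by limma). *ugt-32*, at 3.20 to 7.39 CPM against 0.797 to 1.59 CPM, had the same log2 fold change on both diets, 1.92 and 1.91, with an interaction of 0.01 (95% interval -0.81 to 0.84).

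Among 15 P-glycoprotein genes, ATP-driven exporters, 3 of the 7 raised with vehicle (6 without *ech-6* RNAi + vehicle replicate 3) were raised under P-80: *pgp-5* (0.99), *pgp-9* (0.45) and *pgp-13* (0.58), beside 0.476% of all genes. None was called without EV + P-80 replicate 2 or with only the groups compared, and 1 without EV + P-80 replicate 3, without *ech-6* RNAi + P-80 replicate 2, without the mean-variance trend and with the robust prior. Of 73 cytochrome P450 genes 3 were raised under P-80, beside the same 0.476%. The glutathione S-transferase *gst-4*, widely used as a reporter of the oxidative stress response, had 71.9, 82.1, 69.05 and 75.97 CPM against 49.6, 45.8, 37.4 and 43.1 CPM. Its log2 fold change was 0.77 (standard error 0.077, adjusted p = 3.08e-05) under P-80 and 0.75 with vehicle, with an interaction of 0.02 (95% interval -0.21 to 0.25). *asns-2*, an asparagine synthetase, was as even, with 190.0 to 213 CPM against 129 to 149.8 CPM, 0.54 under P-80 and 0.50 with vehicle.

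The C-type lectin genes, whose products bind sugars and many of which respond to microbes, were also picked after the values were seen. Of 162, 7 were raised under P-80, beside 0.476% of all genes, and none lowered. However, 4 were called lower without *ech-6* RNAi + P-80 replicate 3 and 2 without EV + P-80 replicate 4 or *ech-6* RNAi + P-80 replicate 4. In the family, 94 genes were negative under P-80, where 52.5% of all genes were, with a median of -0.08. At an unadjusted p under 0.05, 14 were higher and 13 lower, against 4.56% and 5.75% of all genes. *clec-43*, *clec-47*, *clec-72* and *clec-265* were also raised with vehicle. *clec-4*, *clec-66* and *clec-67* were not, and in them EV + P-80 was the lowest of the 4 groups. *clec-66* had 30.98, 41.02, 31.9 and 35.3 CPM in *ech-6* RNAi + P-80 and 22.3, 21.5, 20.95 and 19.05 CPM in EV + P-80, where both groups with vehicle spanned 21.1 to 31.3 CPM (log2 fold change 0.73 under P-80, adjusted p = 0.000205 by limma, and 0.24 with vehicle, adjusted p = 0.155). The interaction of *clec-66* was 0.49 (95% interval 0.23 to 0.75, adjusted p = 0.569).

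Altogether 29 genes were called higher and 27 lower under P-80 but not with vehicle. All 29 had positive log2 fold changes with vehicle too, with a median of 0.23, while 22 of the 27 were negative with vehicle, with a median of -0.11. *msra-1*, which encodes a methionine sulfoxide reductase that repairs oxidized methionine, had 58.3, 58.1, 54.1 and 57.6 CPM against 43.6, 37.8, 42.0 and 43.0 CPM under P-80 (log2 fold change 0.45, adjusted p = 0.000261 by limma). With vehicle *msra-1* had 37.7 to 40.4 CPM against 33.7 to 38.3 CPM (0.12, adjusted p = 0.286), and its interaction was 0.34 (95% interval 0.17 to 0.51, adjusted p = 0.569). *F22B3.7* had the largest fitted rise, but on 3, 15, 14 and 9 reads against 0, 0, 1 and 2, so its size is not given.

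Several of the lowered genes are short RNAs. *rpr-1*, the RNA of ribonuclease P (253 bases), had 1292, 983, 1243 and 945 CPM in *ech-6* RNAi + P-80 and 2325, 1603, 1486 and 1774 CPM in EV + P-80 (log2 fold change -0.68, adjusted p = 0.0156 by limma). *R144.15*, a noncoding RNA of 299 bases, had 3423 to 4565 CPM against 5428 to 7022 CPM (-0.58, adjusted p = 0.00382). *lfor-1*, *ZK185.9* and the protein coding *F23A7.8*, of 299, 215 and 204 bases, fell by 0.45, 0.49 and 0.94 on the log2 scale. With vehicle the 5 differences lay between -0.05 and 0.11, and EV + P-80 replicate 1 was the highest sample of *rpr-1*, *R144.15*, *lfor-1* and *F23A7.8*. Without that sample the calls of *rpr-1* and *F23A7.8* were lost, and they were lost in 6 and 3 of the 26 alternative fits in all. The library step that sets how much short RNA is kept was not tested. The share of reads on the 4 ribosomal RNA genes ran from 2.47% to 4.15% in EV + P-80 and from 2.43% to 5.81% in *ech-6* RNAi + P-80.

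The 12 largest falls were taken likewise among called genes averaging at least 1 CPM whose groups did not overlap. The others among them were *oac-18*, *pqn-73*, *F08G2.5*, *K08H10.6* and *F26G1.2*. *oac-18*, annotated as a pseudogene, had 2.16 to 3.09 CPM against 4.59 to 7.65 CPM (-1.11, adjusted p = 0.00122 by limma). *F08G2.5* and *F26G1.2* fell by 0.89 and 0.71 on the log2 scale under P-80 and by 0.91 and 0.78 with vehicle. *pqn-73* and *K08H10.6* were called under P-80 only, at few reads, and lost the call in 15 and 14 of the 26 alternative fits.

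*T05G5.5*, which lies next to *ech-6* on the same strand, had 13.2, 13.1, 14.4 and 12.8 CPM in *ech-6* RNAi + P-80 and 21.97, 16.52, 17.2 and 16.11 CPM in EV + P-80. It fell by 0.41 on the log2 scale on both diets. With vehicle it was also called, without overlap of the groups (adjusted p = 0.0167 by limma). Under P-80 the call (adjusted p = 0.0382 by limma) was lost in 13 of 26 alternative fits. The study places *T05G5.5*, *vps-53* and *gcc-2* in an operon with *ech-6*. By its own analysis, *ech-6* RNAi did not reduce their transcripts consistently or significantly. *vps-53* and *gcc-2*, on the other side of *ech-6*, had differences of -0.05 and 0.06 (adjusted p = 0.877 and 0.777). That of *vps-53* changed sign without *ech-6* RNAi + P-80 replicate 3.

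Other effects seen with vehicle were not called under P-80. Of 23 antimicrobial peptide genes, 6 were lower with vehicle, beside 0.982% of all genes, or 2 without *ech-6* RNAi + vehicle replicate 3. None was called under P-80, where 0.223% of all genes were called lower. The median of the list was -0.16 under P-80 and -0.45 with vehicle. *cnc-2* had 8.12 to 10.9 CPM in EV + vehicle and 2.65 to 4.20 CPM in *ech-6* RNAi + vehicle, and under P-80 2.84 to 5.01 CPM in EV and 1.83 to 3.55 CPM in *ech-6* RNAi (log2 fold change -1.42 with vehicle and -0.71 under P-80, adjusted p = 0.175). The call under P-80 appeared without *ech-6* RNAi + P-80 replicate 3 (-0.90). *nlp-30*, another of these peptides, had -1.38 with vehicle (adjusted p = 0.0290, and 0.0766 without *ech-6* RNAi + vehicle replicate 3) and -0.59 under P-80 (adjusted p = 0.565).

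*F20G2.5*, *R09E10.13* and *Y48E1B.8* were among the 8 largest falls with vehicle, taken by the same limits on level and overlap. They had -0.78, -0.89 and -0.17 under P-80, none past the threshold. *Y48E1B.8* was not called with vehicle without *ech-6* RNAi + vehicle replicate 3 (adjusted p = 0.114 by limma). Of 141 cuticle collagen genes with a col symbol, 22 were raised and 1 lowered with vehicle, beside 1.95% and 0.982% of all genes. Without *ech-6* RNAi + vehicle replicate 3 the counts with vehicle were 16 and 0. No collagen gene was called under P-80. Their median log2 fold change was -0.13 with vehicle and -0.12 under P-80. *col-19*, a collagen of the adult cuticle, had 1002 to 1276 CPM in EV + vehicle and 1421 to 1637 CPM in *ech-6* RNAi + vehicle. Under P-80 the groups overlapped, at 1452 to 1821 CPM in EV and 1705 to 1819.6 CPM in *ech-6* RNAi (log2 fold change 0.11, adjusted p = 0.637). At an unadjusted p under 0.05 the interaction was negative for 26 of the 141 collagen genes and positive for 1. Over all genes it was negative for 3.49% and positive for 2.42%. The family was picked after the values were seen, and its genes are not independent. The calls with vehicle used the same values as the interaction, so these counts are a description. Without EV + P-80 replicate 4, 15 collagen genes were called lower under P-80. None of the 6 vitellogenin genes was called in either comparison.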

How the data were processed

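Total RNA of whole worms was depleted of ribosomal RNA and sequenced by the study. Per the labels and methods, the authors used Trimmomatic 0.32 for trimming, HISAT2 2.0.4 for alignment against the WBcel235 assembly and HTSeq 0.6.1 for counting by gene, with Ensembl release 91. In the deposited table at least 4 samples of every gene have more than 2 reads. The deposited values are log2 CPM by their range and not CPM as the header says, and the authors scaled them by TMM and added a constant before the log. Whole reads were recovered from 100% of the values (within 0.1 read). No column of sample values was left unused, and the series' own comparisons were not used.

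The log2 values were analysed with limma 3.58.1 in R 4.3.3 (lmFit, then eBayes with its trend option, 1 mean per group over all 16 samples). Adjustment was by Benjamini-Hochberg over 19750 genes. The median standard error of a difference was 0.14. The samples are separate pools by their labels, and p-values measure the spread between these pools. Named genes are *ech-6* and its neighbors, the 12 highest and 12 lowest called genes under P-80 and the 8 and 8 with vehicle (mean of at least 1 CPM, groups not overlapping), the 5 vehicle-called genes with the smallest interaction p, and list genes called under P-80. Others were named after their values were seen. The comparison, the gene lists and the named genes were chosen with earlier results of these data known. Coordinates are from Ensembl 115, on the same assembly. The dose of P-80 for these samples is not given in the labels. The fitting code was tested on simulated data.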

Additional observations from a re-analysis of the deposited data

Results flagged for a closer look

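In 7 of the 204 groups of 4 samples checked (51 named genes in 4 groups), 1 sample lay far from the other 3, relative to the range of its group. That distance can be small where the range is small. Chance alone does so in about 1 group in 20. Many of the genes were named because their groups did not overlap, which favors groups without such a sample. These counts are thus a description and do not measure the quality of the samples. Only 1 of the 7 was in a group with P-80. *K11H12.4* had 4.33 log2 CPM in EV + P-80 replicate 3, the lowest, beside 4.62 to 4.67 in the other 3. *ech-6* had 7.48 log2 CPM in the library labelled *ech-6* RNAi + vehicle replicate 3, beside 6.05 to 6.17 in the other 3. In *ech-6* RNAi + vehicle replicate 2, *K08H10.6* had 1.90 log2 CPM, beside 1.53 to 1.57, and *F20G2.5* had 1.84, beside 1.099 to 1.18. In EV + vehicle replicate 4, *B0205.13* had 2.84 log2 CPM, beside 2.29 to 2.35, and *Y48E1B.8* had 2.54, beside 1.73 to 1.86. *hphd-1* had 7.21 log2 CPM in EV + vehicle replicate 1, beside 7.13 to 7.14.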

How the results depend on the processing

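All results were fitted again under 10 alternatives with all samples and in 16 fits that left out 1 sample each. The edgeR and DESeq2 alternatives were not run, because the deposited values are log2 CPM and not counts, and voom weights on the recovered reads stood in for them. Without the mean-variance trend 46 genes were higher and 21 lower under P-80, and 30 and 5 in both comparisons, of 171 and 51 with vehicle. With only the groups compared, 57 and 18 were called under P-80, 571 and 878 with vehicle, and 49 and 8 in both. The replicate numbers were not used as pairs in the main fit. Between EV + P-80 and *ech-6* RNAi + P-80 the correlations of same-numbered samples were 0.039, -0.028, 0.494 and 0.170. That of replicate 3 was the highest between these groups, but not every sample correlated best with its own number. A pairing was thus neither shown nor excluded. With the replicate block 101 genes were higher and 65 lower under P-80, and 26 were lower in both. The causes were not tested. *elo-2* passed as the 1 interaction (of 19750, or of 13910 with low genes left out) with the robust prior, with genes averaging at least 1 CPM, with voom weights and with log2(CPM + 1), and also without EV + vehicle replicate 3, without *ech-6* RNAi + vehicle replicate 3 and, together with *elo-5*, without EV + P-80 replicate 4.

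Leaving out 1 sample gave 68 to 108 genes higher and 23 to 207 lower under P-80, 166 to 550 higher and 42 to 353 lower with vehicle, 48 to 75 higher and 10 to 51 lower in both comparisons, and 0 to 2 interactions. The share of genes raised with vehicle that kept their sign under P-80 ran from 83.6% to 96.6% and their median from 0.11 to 0.32, and for lowered genes from 89.7% to 98.1% and from -0.40 to -0.13. The log2 fold change of *ech-6* under P-80 stayed past the threshold in all 26 fits. Centring the samples on their medians moved the median of all genes to 0.03 and gave 35 lower genes, and leaving out EV + P-80 replicate 4 or *ech-6* RNAi + P-80 replicate 3 turned the share of raised genes from 68.1% to 34.3% and 47.4%. Of the 39 named genes called under P-80, 17 were called in all fits and none reversed; 20 were lost without the trend. When 1 sample was left out, the log2 fold changes of 3 genes that were not called turned sign, and ran from -0.13 to 0.0026 for *vps-53*, from -0.0068 to 0.038 for *C39B5.5* and from -0.49 to 0.068 for *Y48E1B.8*.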

Other observations

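The genes raised under P-80 were spread unevenly over the chromosomes: 35 of the 94 (37.2%) lie on chromosome V, which holds 20.9% of the genes tested, and 6 (6.38%) lie on chromosome I, which holds 14.99%. Of the 44 lowered genes 14 (31.8%) lie on V. Gene families sit in clusters on V, so these genes are not independent, and no test was made.

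Called genes within 10000 bases of each other and changed in the same direction formed 4 raised and 3 lowered pairs. Among the raised ones were *cdr-4* and *cdr-2*, which carry the names of cadmium-responsive genes, on V. *cdr-4* had 29.1 to 52.0 CPM in *ech-6* RNAi + P-80 and 22.1 to 25.8 CPM in EV + P-80 (log2 fold change 0.72), and *cdr-2* had 28.8 to 46.3 CPM and 21.3 to 27.7 CPM (0.56). The metallothionein gene *mtl-2*, also raised, had 4.02, 7.80, 4.75 and 5.62 CPM in *ech-6* RNAi + P-80 and 2.999, 2.12, 2.53 and 2.51 CPM in EV + P-80 (1.09, adjusted p = 0.00122 by limma), while both groups with vehicle were at 6.51 to 12.9 CPM. *C29F3.7* and *ech-1.1*, 92 bases apart on opposite strands of V, both rose, by 0.80 and 0.59 on the log2 scale.

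*gcs-1*, which encodes the first enzyme of glutathione synthesis, had 121 to 138 CPM in *ech-6* RNAi + P-80 and 100.1 to 112 CPM in EV + P-80 (log2 fold change 0.27, adjusted p = 0.00903 by limma). *cysl-2*, a cyanoalanine synthase, had 46.8 to 55.1 CPM against 68.1 to 76.6 CPM (-0.46, adjusted p = 0.00353), and *gsto-1*, an omega-class glutathione transferase, had 20.8 to 34.4 CPM against 33.4 to 54.7 CPM, with an overlap (-0.74, adjusted p = 0.0219). *gcs-1*, *cysl-2* and *gsto-1* were chosen after their values were seen.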
